A study of Mus musculus with 3 samples.

Results

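The cholesterol genes described here are 30 listed genes, 17 that make cholesterol or control its making and 13 that export or store it, of 31053 genes in the count matrices. They were read in tumour-associated macrophages of the MMTV-PyMT mouse, a transgenic strain (FVB/N-Tg(MMTVPyVT)634Mul/J) in which the MMTV promoter drives polyoma middle T antigen mainly in mammary epithelium, so that mammary adenocarcinomas arise. Cells from 3 tumours of 750 mm3 had been gated by flow cytometry (CD45+ Ly6G- CD11b+ F4/80+), and each tumour gave 1 library of the 10x 3' v3 kit. All 3 libraries carry the same transgene and no treatment is named, so there is no control group, and the comparisons are between macrophage classes within the tumours. The labels number the tumours as replicates and do not say whether each came from its own mouse. With the level of each tumour taken out as a term, the p-values measure only how class differences vary across these 3 samples.

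As background, cholesterol is built from acetyl-CoA through mevalonate, isoprenoids, squalene and lanosterol. The transcription factor SREBP2 (gene Srebf2) switches the enzymes of that route on when sterols in the endoplasmic reticulum membrane are low, and INSIG1 holds it back when they are high. Macrophages also take in cholesterol with lipoproteins and dead cells. The surplus is esterified by SOAT1 into droplets coated by PLIN2, or exported by the transporters ABCA1 and ABCG1, whose genes are switched on by the liver X receptors (LXR, genes Nr1h3 and Nr1h2) when oxysterols bind them.

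After keeping barcodes with at least 500 detected genes and at most 15% mitochondrial UMIs, 9749 of 10973 barcodes remained, 663, 2108 and 6978 in tumours 1, 2 and 3, with median depths of 15014, 13600 and 9318.5 UMIs per cell. The libraries held between 12454677 and 86178419 UMIs, and 7 barcodes occurred in more than 1 library. The sort markers were present, with Ptprc (CD45) in 92.3% ± 2.25 and Adgre1 (F4/80) in 86.9% ± 1.77 of cells (SD, n = 3 tumours here and throughout), and Ly6g was at 0. Clustering without the members gave 15 clusters, of which 1 (cluster 14, 54 cells) had tumour epithelium markers and was left out. The other 14 were named from marker genes where the markers allowed: inflammatory-like (cluster 0), lipid-associated-like (2), stress-like (3), cycling-like (4), LYVE-1 resident-like (5, 7 and 9), hypoxia-like (6), MHC-II high-like (10 and 13) and interferon-like (11). Clusters 1, 8 and 12 stayed unnamed, with a median of 2001 UMIs per cell in cluster 12. The names are not exclusive, and in clusters 0, 2, 9, 10 and 13 none of the 10 leading genes was a marker of the list that named the cluster. Lipid-associated markers summed to 8340 ± 1364 CPM in the lipid-associated-like class and to 10029 ± 1542 CPM in the hypoxia-like class, inflammatory markers to 18265 ± 5419 CPM in the inflammatory-like class and to 20136 ± 6159 CPM in cluster 1, and LYVE-1 resident markers to 8200 ± 447 CPM in cluster 7, 2408 ± 345 CPM in cluster 5 and 3467 ± 746 CPM in cluster 1. Levels here and below are CPM, the gene's UMIs per 1000000 UMIs of a class in a tumour.

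Promoter sequences are shown first because SREBP and LXR act on DNA and the 2 arms of the list differ in how many promoters hold CCAAT and GGGCGG. From the RefSeq promoter table (GRCm38.p6), 13 of the 17 synthesis members and 11 of the 13 efflux and storage members had an entry. The 250 bases before the annotated start are printed 5′ to 3′ on the strand of the gene. Capitals mark TCACNCCAC (a form of the sterol regulatory element), CCAAT (the box bound by NF-Y) and GGGCGG (the GC box bound by SP1) on either strand. The first 4 are synthesis members: HMG-CoA synthase (Hmgcs1, chr13:119690101-119690350, plus strand), isopentenyl diphosphate isomerase (Idi1, chr13:8885356-8885605, plus), lanosterol demethylase (Cyp51, chr5:4104698-4104947, minus) and Insig1 (chr5:28071162-28071411, plus). The last 2 are efflux members: Abca1 (chr4:53159896-53160145, minus) and phospholipid transfer protein (Pltp, chr2:164857709-164857958, minus).
Hmgcs1: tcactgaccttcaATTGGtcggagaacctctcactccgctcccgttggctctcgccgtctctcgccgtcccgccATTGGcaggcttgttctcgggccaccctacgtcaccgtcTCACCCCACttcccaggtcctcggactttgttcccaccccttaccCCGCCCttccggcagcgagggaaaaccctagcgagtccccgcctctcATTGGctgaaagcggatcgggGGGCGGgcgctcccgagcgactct
Idi1: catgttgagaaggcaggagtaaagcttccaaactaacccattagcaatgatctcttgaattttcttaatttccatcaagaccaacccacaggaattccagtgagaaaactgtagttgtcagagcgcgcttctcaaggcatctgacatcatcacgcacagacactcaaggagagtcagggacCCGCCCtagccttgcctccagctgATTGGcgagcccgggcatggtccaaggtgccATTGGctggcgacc
Cyp51: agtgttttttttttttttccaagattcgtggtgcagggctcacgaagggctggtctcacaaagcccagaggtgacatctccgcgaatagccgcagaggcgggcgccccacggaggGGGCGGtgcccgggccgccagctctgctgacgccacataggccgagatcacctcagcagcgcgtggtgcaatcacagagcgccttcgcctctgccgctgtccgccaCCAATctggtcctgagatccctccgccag
Insig1: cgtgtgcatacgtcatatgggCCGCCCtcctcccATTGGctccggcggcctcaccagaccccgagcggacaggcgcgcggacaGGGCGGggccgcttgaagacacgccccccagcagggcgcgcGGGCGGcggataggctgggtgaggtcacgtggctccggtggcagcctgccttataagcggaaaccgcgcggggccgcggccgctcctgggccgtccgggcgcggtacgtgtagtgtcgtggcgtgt
Abca1: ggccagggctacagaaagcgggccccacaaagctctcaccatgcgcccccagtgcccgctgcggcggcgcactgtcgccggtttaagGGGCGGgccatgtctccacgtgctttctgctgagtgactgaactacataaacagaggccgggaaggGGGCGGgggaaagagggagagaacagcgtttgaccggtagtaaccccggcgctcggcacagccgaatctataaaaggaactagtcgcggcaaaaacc
Pltp: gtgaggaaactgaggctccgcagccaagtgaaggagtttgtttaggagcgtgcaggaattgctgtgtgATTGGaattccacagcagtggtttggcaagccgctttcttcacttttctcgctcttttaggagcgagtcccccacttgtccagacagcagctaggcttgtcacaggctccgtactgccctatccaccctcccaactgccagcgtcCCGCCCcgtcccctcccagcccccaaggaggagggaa

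CCAAT occurred in 12 of the 13 synthesis promoters and in 6 of the 11 efflux and storage promoters, against 33.8% of all 32851 promoters in the table. Abca1, printed above, was among those without it. GGGCGG occurred in 13 of 13 synthesis and 5 of 11 efflux and storage promoters, against 32.7% of all promoters and 59.2% of the 8923 promoters of genes tested here. The sterol element form was found only in Hmgcs1 among the members, 137 bases before the start, and in 1.05% of all promoters. The LXR element DR4, searched as AGGTCA repeated after any 4 bases, was found in 0 of 13 synthesis and 0 of 11 efflux and storage promoters, and in 5 of the 32851 promoters in all. A gene with several listed starts was counted once if any of them held the motif. A motif search of this kind describes letters in a window and shows neither binding nor its absence.

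Counts were summed per class and tumour and compared with edgeR's quasi-likelihood test, and a gene is called at an adjusted p under 0.05. The genes tested leave out the 2000 variable genes used to cluster. Shares and medians of all genes given below are those of the tested genes. The members were kept out of the variable genes however much they varied, so members and background were not chosen alike. The 11 classes with at least 20 cells in each tumour entered 1 fit, and clusters 9, 11 and 13 were taken from a second fit with a minimum of 3 cells. A class is compared with the unweighted mean of the other fitted classes, and a log2 fold change is given with its standard error (SE). Of the members, 28 passed the filter on low counts. Lanosterol synthase (Lss, 149 UMIs in all cells) and apolipoprotein Apoc2 (80 UMIs) did not. The classes were formed from the same cells, though without the members, so the p-values are not those of classes set apart in other cells.

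Synthesis and export genes were differently placed among the classes. Summed over the 17 synthesis genes, the level was highest in the cycling-like class at 296.7, 229.95 and 211.7 CPM in tumours 1, 2 and 3 (246 ± 44.8), and in the lipid-associated-like class it was 155, 153 and 158 CPM (156 ± 2.35). Cluster 8 came next to the cycling-like class among the 11 classes, at 215 ± 17.1 CPM. Cluster 12, with Top2a and Stmn1 among its leading genes, had the lowest synthesis sum of these classes, 147 ± 17.5 CPM. Its cycling marker sum was 739 ± 35.0 CPM, beside 2439 ± 297 CPM in the cycling-like class, and its median depth was 2001 UMIs per cell. The inflammatory-like class was at 191 ± 20.8 CPM, beside 192 ± 15.5 CPM in the stress-like class. Summed over the 13 efflux and storage genes, the inflammatory-like class was lowest at 1161, 1152 and 1181 CPM (1165 ± 15.1) and cluster 7 highest at 3322, 2629 and 2673 CPM (2875 ± 388). The synthesis sums of the cycling-like and lipid-associated-like classes did not overlap, nor did the efflux and storage sums of the inflammatory-like class and cluster 7. The efflux and storage sum rests mostly on Plin2, Pltp and Abca1, the members with the most UMIs in that arm. The log2 ratio of the sums, efflux and storage over synthesis, stood below the mean of the 11 classes by 0.65 ± 0.08 in the inflammatory-like class and by 0.76 ± 0.33 in the cycling-like class. It stood above that mean by 0.43 ± 0.13 in the lipid-associated-like class and by 0.73 ± 0.12 in cluster 7, and each of these 4 deviations had its sign in 3 of 3 tumours. In cluster 1 the ratio stood above the mean by 0.52 ± 0.15, more than in the lipid-associated-like class and also in 3 of 3 tumours. Cluster 1 had an inflammatory marker sum of 20136 CPM, beside 18265 CPM in the inflammatory-like class. With the highest doublet scores removed, the deviation of the lipid-associated-like class was 0.06.

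**Figure D1:**
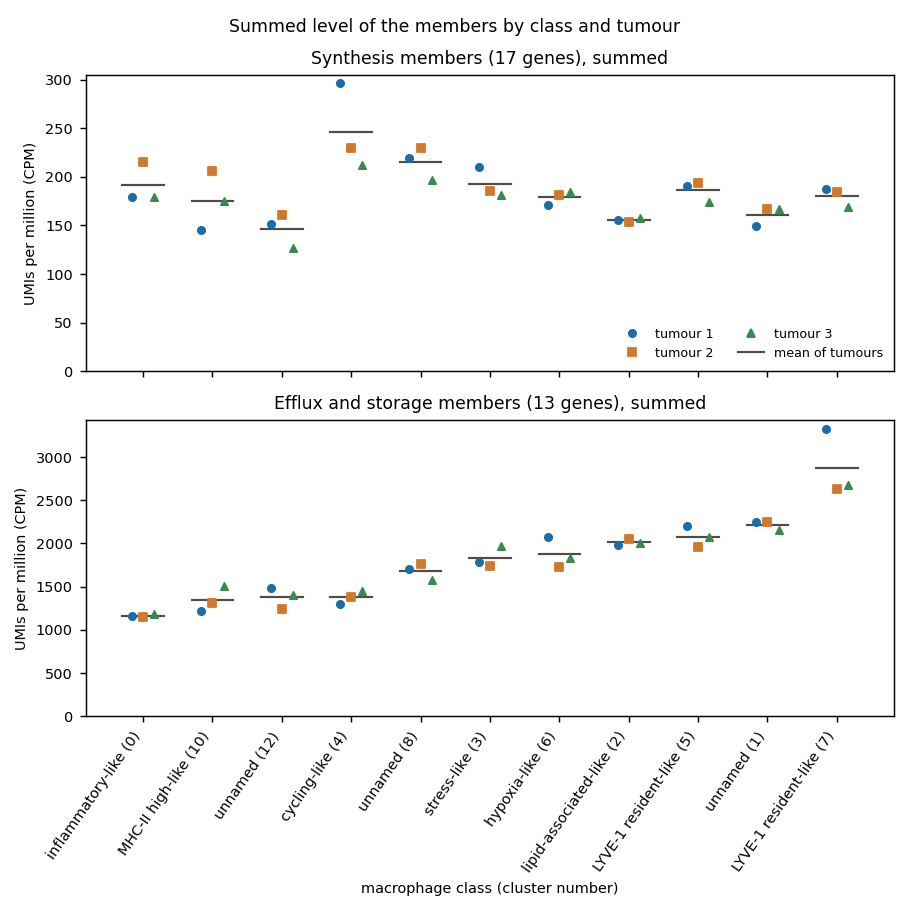
Summed CPM of the 17 synthesis members (top) and the 13 efflux and storage members (bottom) in the 11 classes with at least 20 cells per tumour, ordered by the lower panel. Each point is 1 tumour and each line the mean of the 3. The lower sums run from 1165 CPM in the inflammatory-like class to 2875 CPM in cluster 7, while the upper sums range from 147 CPM in cluster 12 to 246 CPM in the cycling-like class.

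Over the 11 classes together, 9 of 16 tested synthesis members and 11 of 12 efflux and storage members differed among classes, where 75.3% of the 8847 tested genes did. The synthesis share was thus below that of the tested genes, from which the variable genes used to cluster are left out. Those 9 were Fdft1, Sqle, Cyp51, Fdps, Idi1, Hmgcs1, Dhcr7, Srebf2 and Insig1. The 7 synthesis members that were not called were Acat2, Mvk, Mvd, Msmo1, Nsdhl, Sc5d and Stard4, with adjusted p between 0.0657 for Msmo1 and 0.787 for Mvd. The only efflux and storage member tested and not called was Nr1h3, at an adjusted p of 0.0625. With equal cell numbers per class, 4 synthesis and 7 efflux and storage members were called.

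In the inflammatory-like class 6 synthesis members were higher and 0 lower, and 2 efflux and storage members were lower and 0 higher, against 15.2% of all genes higher and 11.3% lower. In the cycling-like class 6 synthesis members were higher and 6 efflux and storage members lower, with 0 in the opposite direction in either arm, against 16.3% higher and 12% lower. In the lipid-associated-like class 0 synthesis members were called and 4 efflux and storage members were higher, against 8.04% higher and 4.15% lower. Set directly against the inflammatory-like class, the lipid-associated-like class had 5 synthesis members lower and 4 efflux and storage members higher, where 5.44% of all genes were lower and 4.74% higher. The median log2 fold change in the cycling-like class was 0.32 over the 16 synthesis members and fell by 0.47 over the 12 efflux and storage members, beside 0.01 over all genes. In the direct comparison the medians were -0.31 and 0.24, beside 0.01. Without tumour 2, whose removal left tumours 1 and 3, the calls among members fell to 3 in the inflammatory-like class, 5 in the cycling-like class, 0 in the lipid-associated-like class and 2 in the direct comparison. Without tumour 3 they numbered 5, 7, 2 and 3 in the same order, and without the tumour as a term of the model 5, 5, 0 and 2.

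**Figure D2:**
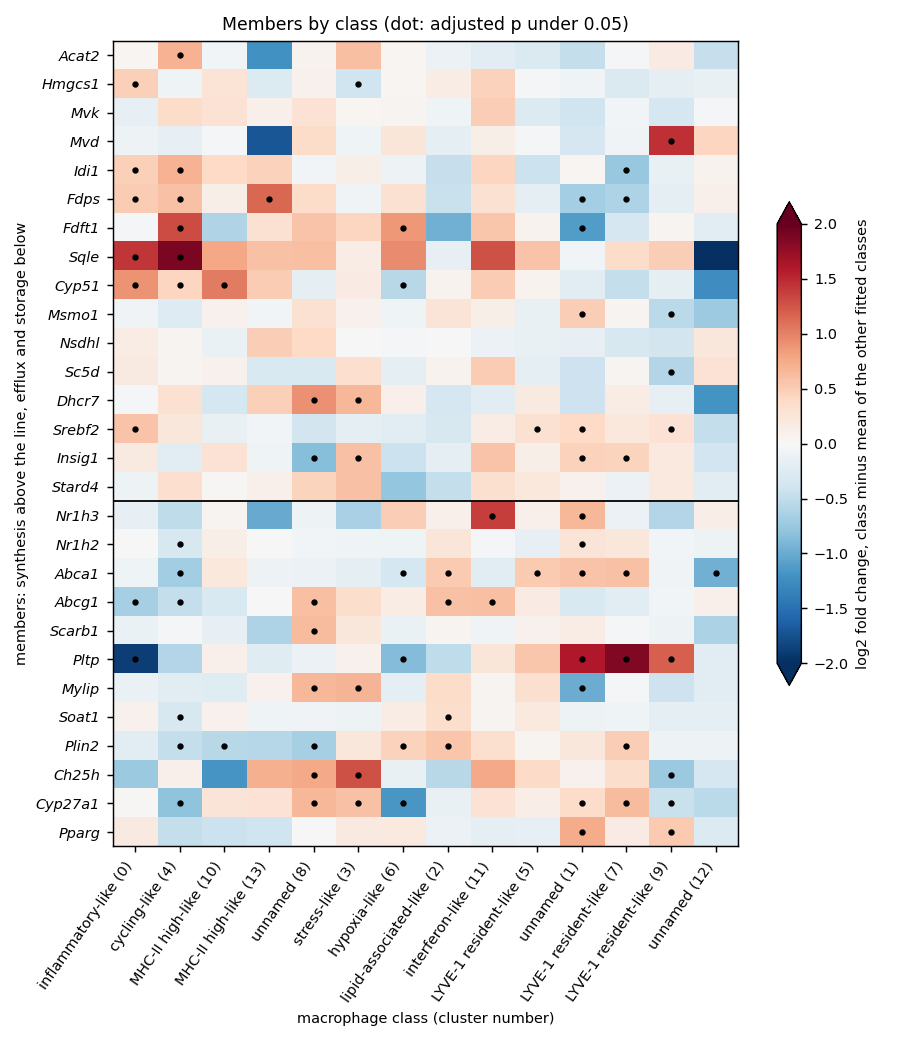
Log2 fold change of the 28 tested members (rows, synthesis above the line) in each of 14 macrophage classes (columns), each class against the mean of the other fitted classes, with a dot where the adjusted p is under 0.05. The colour scale ends at 2 in both directions. The inflammatory-like and cycling-like columns have 6 dotted synthesis genes each, all red, and the Pltp row runs from -1.88 in the inflammatory-like class to 1.86 in cluster 7.

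Among the synthesis enzymes, Sqle, Fdft1, Idi1, Fdps and Cyp51 had their highest class means in cycling-like cells among the 11 classes of the larger fit, as did Acat2, Mvk and Sc5d. Mvd and Lss, enzymes of the same route, had theirs in cluster 8 (9.03 and 2.04 CPM), and so did Hmgcs1, Msmo1, Nsdhl, Dhcr7 and Stard4. Sqle, the squalene epoxidase that makes the first oxygen-containing sterol precursor, was at 11.3, 9.19 and 6.13 CPM in the cycling-like class and at 2.25, 0.613 and 2.10 CPM in the lipid-associated-like class. Its levels in these 2 classes did not overlap. No UMI of Sqle was counted in cluster 12, which raises its fold change in the other classes. With that class left out of the reference, Sqle was higher in the cycling-like class by 1.25 on the log2 scale (adjusted p = 1.8e-05) and in the inflammatory-like class by 0.78 (adjusted p = 0.0137). Fdft1, squalene synthase, was at 9.42, 7.48 and 6.05 CPM in the cycling-like class, 1.31 ± 0.24 (SE) above the other classes (adjusted p = 2.75e-05). Fdft1 was at 0, 1.23 and 1.54 CPM in the lipid-associated-like class, from 13 UMIs in all. The Fdft1 and Sqle calls in the cycling-like class were kept in all 13 alternatives that gave a value for them.

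Idi1, which interconverts the isoprenoid building blocks, was at 14.1, 17.3 and 15.6 CPM in cycling-like cells, above its level in each of the other 10 classes of the larger fit in every tumour, and higher by 0.70 ± 0.15 (SE, adjusted p = 0.00019). In the lipid-associated-like class Idi1 was at 4.50, 4.29 and 8.12 CPM and in cluster 7 at 1.98, 5.95 and 7.08 CPM. Fdps, the farnesyl diphosphate synthase that also feeds protein prenylation, was at 43.3, 17.3 and 17.5 CPM in the cycling-like class and 19.9, 17.4 and 13.04 CPM in the inflammatory-like class. Its level in the lipid-associated-like class, at 6.76, 6.75 and 9.38 CPM, was below all of these values. Fdps was lower there than in the inflammatory-like class by 0.87 ± 0.23 on the log2 scale (SE, adjusted p = 0.00813), a call kept in 5 of 10 alternatives. Cyp51, the lanosterol demethylase, was at 14.5, 29.9 and 16.7 CPM in the inflammatory-like class, higher by 0.91 ± 0.14 (SE, adjusted p = 2.22e-06), and at 25.4, 21.6 and 17.3 CPM in the cycling-like class, where its call was kept in 6 of 16 alternatives. The lipid-associated-like class had Cyp51 at 9.01, 14.1 and 13.2 CPM, below the inflammatory-like class in each tumour. Acat2, the thiolase that starts the route, was higher in the cycling-like class by 0.69 ± 0.22 (SE, adjusted p = 0.0129), with the reserve that reads of its near-identical copy Acat3 could be counted for it.

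**Figure D3:**
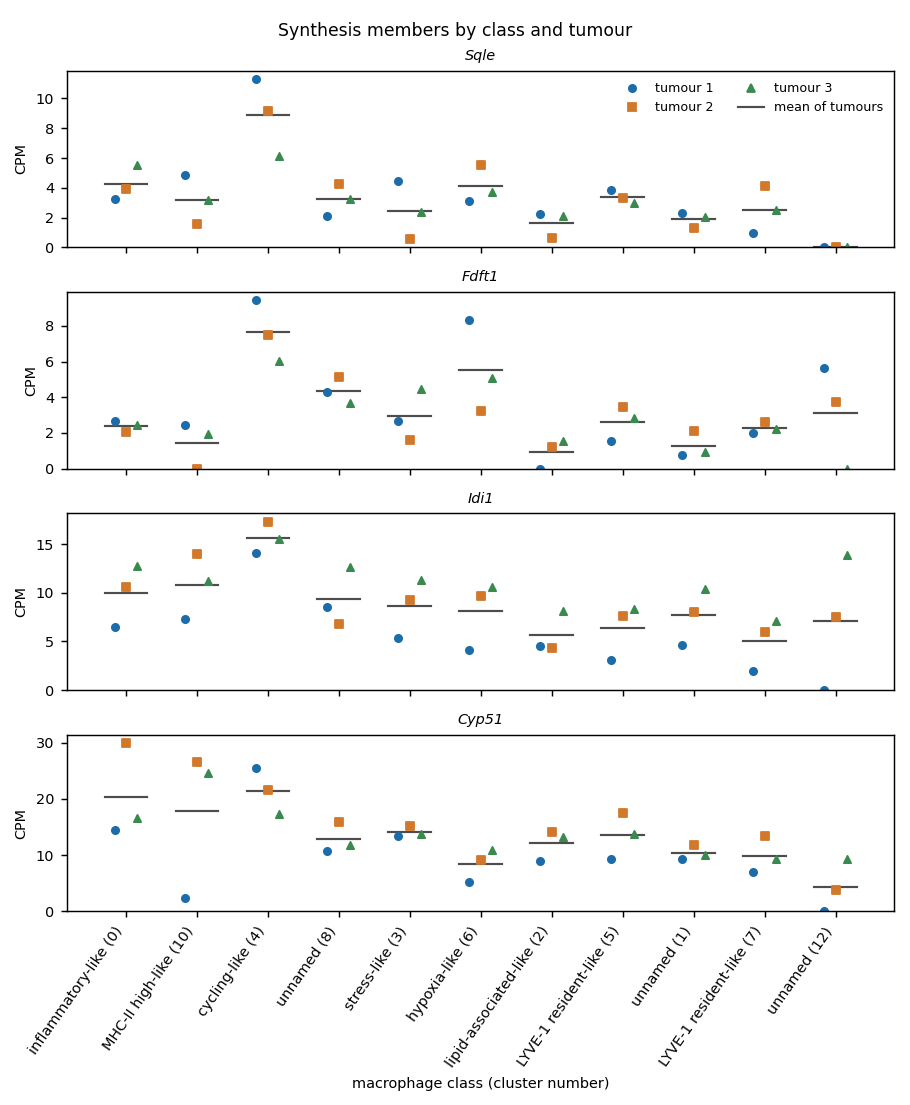
CPM of Sqle, Fdft1, Idi1 and Cyp51 in the 11 fitted classes. Each point is 1 tumour and each line the mean of the 3. For Sqle, Fdft1 and Idi1 the cycling-like class has the highest mean, at 8.87, 7.65 and 15.7 CPM, and for Cyp51 the cycling-like and inflammatory-like means are 21.4 and 20.4 CPM.

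Hmgcs1, which makes HMG-CoA and is the member with the sterol element form printed above, differed less between classes. It was at 27.5, 34.8 and 23.0 CPM in the inflammatory-like class (higher by 0.47 ± 0.10, SE, adjusted p = 0.000329) and at 36.0, 28.8 and 19.7 CPM in the lipid-associated-like class, so the levels of the 2 classes overlapped. In the stress-like class it was at 19.7, 22.3 and 14.2 CPM and lower by 0.41 ± 0.14 (SE, adjusted p = 0.0398), a call kept in 5 of 15 alternatives. Dhcr7, the reductase of the last step to cholesterol, followed another pattern. Its highest class mean was in cluster 8, at 12.8, 22.3 and 21.7 CPM, although in tumour 1 the cycling-like class (21.7 CPM), cluster 5 (18.5 CPM) and cluster 13 (23.2 CPM) stood above it. In cluster 8 Dhcr7 was higher by 0.91 ± 0.20 (SE, adjusted p = 0.000343), and it was also higher in the stress-like class by 0.67 ± 0.20 (SE, adjusted p = 0.0178, kept in 10 of 15 alternatives). Mvd, the mevalonate diphosphate decarboxylase, stood out in cluster 9 at 14.6, 19.9 and 12.9 CPM, higher by 1.45 ± 0.18 (SE, adjusted p = 2.6e-09), although tumour 1 gave only 12 cells of that cluster.

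Of the regulators, Srebf2 was at 35.5, 25.6 and 23.5 CPM in the inflammatory-like class and at 18.0, 15.3 and 16.4 CPM in the lipid-associated-like class. The levels did not overlap, and the direct difference fell by 0.81 ± 0.16 on the log2 scale (SE, adjusted p = 0.000196). Insig1 was called in neither the inflammatory-like nor the cycling-like class. It was at 31.3, 21.2 and 22.1 CPM in the stress-like class, higher by 0.59 ± 0.15 (SE, adjusted p = 0.00541), and at 25.8, 27.9 and 19.97 CPM in cluster 7, higher by 0.45 ± 0.14 (SE, adjusted p = 0.0116). In cluster 1 it was at 14.8, 28.4 and 18.3 CPM, higher by 0.46 ± 0.15 (SE, adjusted p = 0.0171), a call kept in 7 of 12 alternatives. In cluster 8 it was at 8.56, 11.1 and 11.9 CPM and lower by 0.85 ± 0.21 (SE, adjusted p = 0.001). The summed level of the stress marker genes was 15938 ± 1529 CPM in the stress-like class and 11126 ± 315 CPM in cluster 7, beside 5105 ± 856 CPM in the inflammatory-like class and 3944 ± 366 CPM in cluster 8. It was 6543 ± 324 CPM in cluster 1, where Insig1 was called, and 6688 ± 697 CPM in the cycling-like class, where Insig1 was not called. The part of stress in the Insig1 result was not tested. The sterol carrier Stard4 was called in no class.

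Genes of the route and its control outside the member list were read beside these enzymes. Lbr, a nuclear envelope protein with sterol reductase activity, was at 38.6, 38.04 and 36.2 CPM in the cycling-like class and at 4.50, 5.52 and 6.02 CPM in the lipid-associated-like class, with no overlap. Lbr was higher in the cycling-like class by 1.52 ± 0.11 (SE, adjusted p = 2.03e-16) and lower in the lipid-associated-like class by 1.11 ± 0.21 (SE, adjusted p = 0.000172). Of 15 tested SREBP-control and uptake genes, 1 was higher and 2 lower in the cycling-like class, against 16.3% and 12% of all genes. The higher one was Tmem97, an SREBP target that binds the lysosomal cholesterol transporter NPC1, at 31.1, 35.9 and 33.5 CPM (0.86 ± 0.10, SE, adjusted p = 6.94e-10), and the lower ones were the lysosomal sterol carrier Npc2 (-0.50 ± 0.06) and the endocytic receptor Lrp1 (-0.39 ± 0.08, SE). In the lipid-associated-like class 6 of the 15 were higher and 0 lower, with the sterol transfer protein Gramd1b (0.91 ± 0.16, SE) having the largest difference. In the inflammatory-like class Scap, which escorts SREBP out of the endoplasmic reticulum, was at 12.4, 12.9 and 13.04 CPM and higher by 0.54 ± 0.15 (SE, adjusted p = 0.00479). Gramd1a, another sterol transfer protein, was also higher there (0.53 ± 0.09), while Gramd1b was lower by 0.58 ± 0.17 and Insig2, which like INSIG1 retains SREBP, by 0.44 ± 0.14 on the log2 scale (SE). Of the 8 tested fatty acid synthesis genes, 1 was called in the inflammatory-like class, 1 in the cycling-like class and 0 in the lipid-associated-like class. Except for the 6 of 15 in the lipid-associated-like class, where 8.04% of all genes were higher, these counts are near or below the shares of all genes called in the same classes.

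The LXR receptor genes themselves gave few calls. Nr1h2 was lower in the cycling-like class by 0.32 ± 0.09 (SE, adjusted p = 0.00396) and higher in cluster 1 by 0.25 ± 0.09 (SE, adjusted p = 0.0376). Nr1h3 was higher in cluster 1 by 0.66 ± 0.24 (SE, adjusted p = 0.0424) and in the interferon-like cluster 11 by 1.38 ± 0.28 (SE, adjusted p = 0.00156), where its level was 7.80, 13.4 and 40.4 CPM. Tumour 1 gave only 8 cells of the interferon-like class, and without tumour 3 the Nr1h3 difference in that class was -0.10. Pparg, a receptor that acts upstream of Nr1h3 in macrophages, was higher in cluster 1 by 0.75 ± 0.20 (SE, adjusted p = 0.00247) and in cluster 9 by 0.52 ± 0.19 (SE, adjusted p = 0.0422). The Pparg call was kept in 10 of 12 alternatives in cluster 1 and in 4 of 15 in cluster 9, and the Nr1h2 and Nr1h3 calls in cluster 1 in 6 and 7 of 12.

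Abca1, the transporter that loads cholesterol onto lipid-poor apolipoprotein A-I, was highest in clusters 7 and 5 and in the lipid-associated-like class. It was at 367, 468 and 298 CPM in cluster 7, at 364, 417 and 304 CPM in cluster 5, at 252, 480 and 280 CPM in the lipid-associated-like class and at 318, 414 and 257 CPM in cluster 1. These 4 classes overlapped with each other. Each was called higher, by between 0.52 ± 0.10 in cluster 5 and 0.59 ± 0.10 in cluster 7 (SE). In the cycling-like class Abca1 was at 166, 218 and 156 CPM, lower by 0.70 ± 0.11 (SE, adjusted p = 4.99e-06). Tumour 2 had the highest Abca1 level in each of these 5 classes. In the 54 tumour epithelium-like cells Abca1 was at 67.3 ± 69.2 CPM.

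Abcg1, which hands cholesterol to high-density lipoprotein, had another order. It was at 106, 119.8 and 125 CPM in cluster 8 and at 74.3, 127 and 96.4 CPM in the lipid-associated-like class, and at 20.99, 49.6 and 47.7 CPM in the inflammatory-like class. The inflammatory-like levels lay below those of both other classes in every tumour. Abcg1 was lower in the inflammatory-like class by 0.67 ± 0.14 (SE, adjusted p = 0.000855), a call that was kept in all 16 alternatives. It was higher in the lipid-associated-like class than in the inflammatory-like class by 1.14 ± 0.19 (SE, adjusted p = 0.00012). That call was kept in all 10 alternatives that gave a value. Among the 7 other clusterings, only those with 1000 detected genes and with the highest doublet scores removed gave one. Scarb1, the receptor for high-density lipoprotein, was called in cluster 8 alone of the 14 classes, at 33.2, 33.4 and 24.5 CPM (0.63 ± 0.14, SE, adjusted p = 0.000289).

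Pltp, a secreted protein that moves phospholipid between lipoproteins, had the widest range of class means among the tested efflux and storage members. It was at 44.7, 112 and 85.9 CPM in the inflammatory-like class, at 831, 812 and 722 CPM in cluster 1 and at 1331, 919 and 902 CPM in cluster 7. None of these 3 classes overlapped with another. The log2 difference was -1.88 ± 0.28 (SE, adjusted p = 2.89e-05) in the inflammatory-like class, 1.60 ± 0.21 (SE, adjusted p = 3.17e-06) in cluster 1 and 1.86 ± 0.20 (SE, adjusted p = 2.25e-07) in cluster 7, and all 3 calls were kept in every alternative that gave a value (16, 12 and 12). In cluster 9, also LYVE-1 resident-like, Pltp was at 979.5, 606 and 663 CPM (1.19 ± 0.23, SE, adjusted p = 0.000229), while in cluster 5 it was at 567, 429.7 and 406 CPM and was not called. The LYVE-1 marker sum of cluster 9 was 2282 ± 188 CPM, below that of the unnamed cluster 1. Exons of Pltp overlap those of Ctsa on the opposite strand, and whether strand was used in counting is not given in the sources used here. Ctsa was at 786 ± 66.9 CPM in the inflammatory-like class and 763 ± 74.7 CPM in cluster 7. The part of Ctsa reads in the Pltp counts was not tested.

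**Figure D4:**
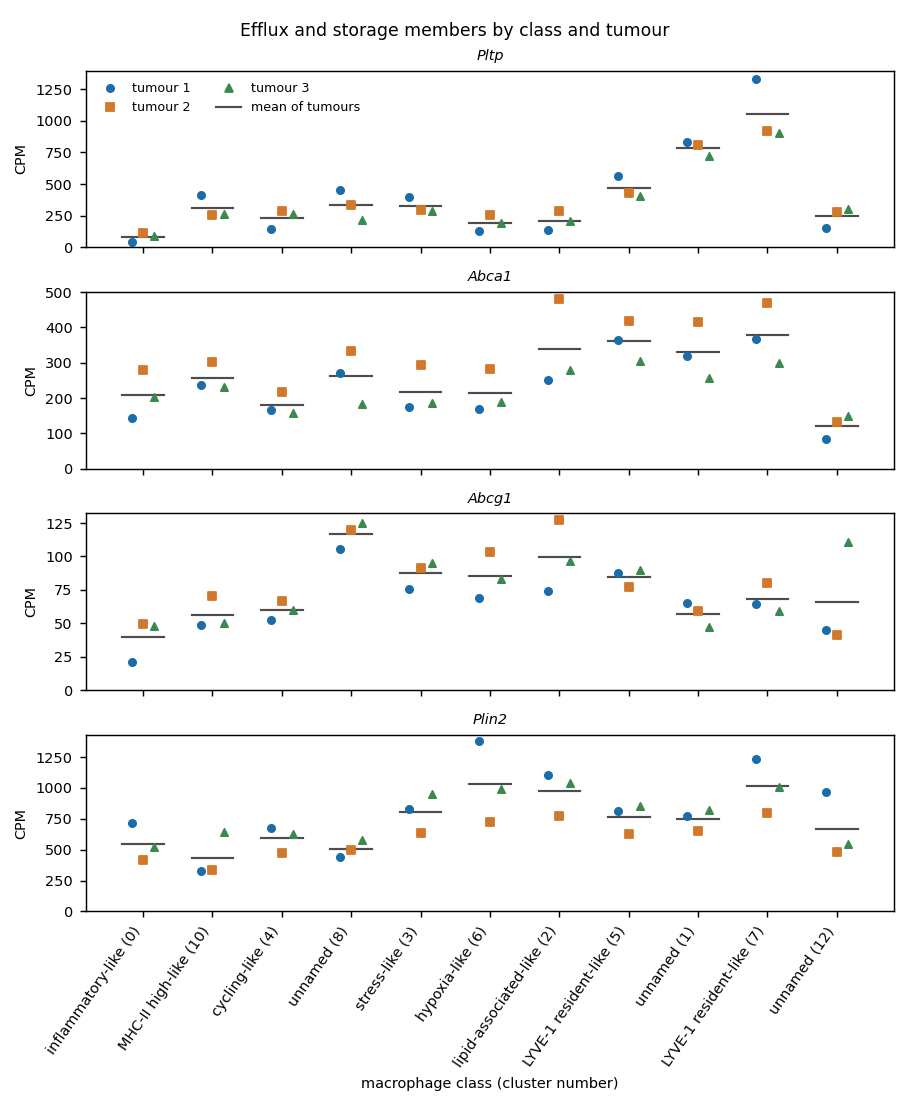
CPM of Pltp, Abca1, Abcg1 and Plin2 in the 11 fitted classes. Each point is 1 tumour and each line the mean of the 3. Pltp has a mean of 80.9 CPM in the inflammatory-like class and 1051 CPM in cluster 7, Abcg1 has its lowest mean in the inflammatory-like class, and Plin2 has its highest mean, 1034 CPM, in the hypoxia-like class.

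On the storage side, Plin2 was at 1379, 728 and 995 CPM in the hypoxia-like class, at 1108, 771 and 1042 CPM in the lipid-associated-like class and at 1234, 795 and 1009 CPM in cluster 7. These 3 classes overlapped, and each was called higher, by 0.47 ± 0.14, 0.55 ± 0.14 and 0.50 ± 0.14 (SE). Plin2 was at 443, 501 and 580.3 CPM in cluster 8, lower by 0.66 ± 0.16 (SE, adjusted p = 0.00213), and was also lower in the cycling-like class and in the MHC-II high-like cluster 10. The hypoxia marker sum was 3065 ± 1379 CPM in the hypoxia-like class and 1225 ± 375 CPM in the lipid-associated-like class, and its part in the Plin2 result was not tested. Soat1, the enzyme that esterifies cholesterol for storage, was at 158, 169.8 and 162 CPM in the lipid-associated-like class (0.36 ± 0.09, SE, adjusted p = 0.004) and at 93.3, 134 and 131 CPM in the cycling-like class, lower by 0.32 ± 0.08 (SE, adjusted p = 0.00243). These levels did not overlap. Mylip, an LXR target that encodes a ubiquitin ligase, was at 119.8, 139 and 142 CPM in cluster 8 and at 23.3, 50.9 and 40.5 CPM in cluster 1. It was higher in cluster 8 by 0.67 ± 0.12 (SE, adjusted p = 0.0001) and lower in cluster 1 by 1.00 ± 0.15 (SE, adjusted p = 5.12e-06), opposite in direction to Abca1 and Pltp in cluster 1.

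The oxysterol-making enzymes were highest outside the lipid-associated-like class. Cyp27a1, a mitochondrial sterol hydroxylase, was at 47.1, 38.5 and 31.5 CPM in cluster 8, 39.6, 30.1 and 33.8 CPM in cluster 7 and 5.20, 13.8 and 10.8 CPM in the hypoxia-like class. The hypoxia-like levels lay below all of the others, with a difference of -1.16 ± 0.17 (SE, adjusted p = 1.14e-06). In the cycling-like class Cyp27a1 was at 16.01, 15.6 and 13.3 CPM, lower by 0.81 ± 0.13 (SE, adjusted p = 3.4e-06), and in the lipid-associated-like class it was at 24.8, 18.4 and 17.8 CPM and was not called. Ch25h, which makes an oxysterol in activated macrophages, was at 25.0, 56.6 and 80.4 CPM in the stress-like class, higher by 1.27 ± 0.23 (SE, adjusted p = 0.000871), with the stress gene sums given above. Without tumour 2 or without tumour 3 that call was lost, at adjusted p of 0.123 and 0.341.

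Other LXR and efflux genes, 11 of 11 tested, were counted beside the members. In the lipid-associated-like class 4 were higher and 0 lower, against 8.04% and 4.15% of all genes, among them apolipoprotein genes Apoe (0.73 ± 0.10) and Apoc1 (0.94 ± 0.27) and the phospholipid acyltransferase Lpcat3 (0.52 ± 0.11, SE). In the cycling-like class 0 were higher and 6 lower, against 16.3% and 12%, with Apoe lower by 0.97 ± 0.12, Apoc1 by 0.97 ± 0.27 and Smpdl3a by 0.76 ± 0.14 on the log2 scale (SE). The inflammatory-like class had 1 higher and 3 lower, against 15.2% and 11.3%, with Apoc1 lower by 0.99 ± 0.30 and Smpdl3a by 0.57 ± 0.14 on the log2 scale (SE). Cluster 7 had 3 higher, Smpdl3a (0.88 ± 0.12), Rxra (0.89 ± 0.14) and Rnf145 (0.33 ± 0.12), and 1 lower, Lpcat3. Of the 11 tested, the 3 higher are somewhat above the 19.3% of all genes and the 1 lower is below the 16.4%. Of the 9 tested other storage genes, 3 were lower in the cycling-like class, 1 was higher in the lipid-associated-like class and 0 were called in the inflammatory-like class, against the same shares of all genes. The tumour epithelium marker sum was 959 ± 238 CPM in the lipid-associated-like class and 615 ± 145 CPM in the inflammatory-like class. In the epithelium-like cells Abcg1 was at 22.2 ± 24.0 CPM, Soat1 at 29.7 ± 34.0 CPM and Plin2 at 373 ± 83.5 CPM, each below its mean in the lipid-associated-like class.

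In the remaining classes the members' calls were mixed between the arms. Cluster 7 had 1 synthesis member higher (Insig1) and 2 lower (Fdps and Idi1), and 4 efflux and storage members higher, against 19.3% of all genes higher and 16.4% lower. Cluster 1, led by Ccl24 and Il10, had 3 synthesis members higher and 2 lower and 6 efflux and storage members higher and 1 lower, against 18.1% and 12.5%. Cluster 8 had 1 higher and 1 lower in the synthesis arm and 5 higher and 1 lower in the other, against 20.8% and 16%. The stress-like class had 2 higher and 1 lower, and 3 higher and 0 lower, against 7.89% and 4.8%. In the hypoxia-like class there were 1 higher and 1 lower, and 1 higher and 3 lower, against 10.9% and 8.39%. The direction of Fdps in clusters 1 and 7 and of Idi1 in cluster 7 was reversed under other clusterings.

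The other classes had between 1 and 8 members called. Cluster 5 had Srebf2 and Abca1 higher and 0 lower, against 10.3% and 5.92%, with the Srebf2 call kept in 4 of 15 alternatives, and the MHC-II high-like cluster 10 had Cyp51 higher and Plin2 lower, against 6.28% and 1.7%. Cluster 12 had Abca1 lower, at 84.3, 131 and 148 CPM, against 9.8% of all genes higher and 9.52% lower. In cluster 9 there were 2 synthesis members higher and 2 lower, and 2 efflux and storage members higher and 2 lower, against 15.5% and 9.12%, and 5 of these 8 calls were lost in more alternatives than they were kept in. The interferon-like class had Abcg1 and Nr1h3 higher, against 4.01% and 0.997%, and the MHC-II high-like cluster 13 had Fdps higher, against 1.71% and 1.82%.

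Across the 33 points of 11 classes and 3 tumours, centred within each tumour, members of an arm varied together only loosely. The median Pearson r over the 120 pairs of synthesis members was 0.17, with 93 pairs positive, and over the 66 pairs of efflux and storage members 0.30, with 57 positive. Between the arms the median over 192 pairs was 0.04, and r between the summed levels of the arms was -0.18. The closest pairs were Fdft1 with Fdps (r = 0.70) and Cyp51 with Idi1 (r = 0.68), and the most opposed was Idi1 with Plin2 (r = -0.56). These are descriptions: the points share libraries and cells of different depth, and several members have few UMIs.

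Depth and doublet scores also differed between classes, and the part of depth in the results was not tested. The cycling-like class had a median of 16636 UMIs per cell and cluster 5 had 23948, against 9048 in the lipid-associated-like class. Removing the cells with the highest doublet scores took 11.6% of cycling-like and 18.6% of cluster 5 cells, and the cycling-like calls of Sqle, Fdft1, Abca1 and Cyp27a1 were kept. Exons of Fdft1 overlap those of the abundant Ctsb on the opposite strand. Ctsb was at 3284 ± 196 CPM in the cycling-like class and 5611 ± 359 CPM in the lipid-associated-like class, and its part in the Fdft1 counts was not tested. Exons of Cyp51 and Hmgcs1 also overlap those of genes on the opposite strand (Akap9 and Gm48342), and those of Fdps and Nr1h3 overlap genes on the same strand (Gm43738 and Gm13783).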

How the data were processed

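The authors deposited raw UMI counts per gene and cell barcode for 3 libraries, made with Cell Ranger 3.0.2 on build mm10 per the submitters' processing notes, and the annotation release and use of strand are not given in the sources used here. The barcodes had already been called as cells, and the libraries of tumours 1, 2 and 3 held 12454677, 41097369 and 86178419 UMIs. Gene positions and overlaps came from GENCODE by gene ID. The members and all gene lists were chosen with earlier results of these data known.

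Barcodes under 500 detected genes or over 15% mitochondrial UMIs were dropped. Scrublet marked 26 cells (0.267%) as doublets, which is not a working rate, so no cell was removed on it, and removal of the highest scores at 0.8% per 1000 cells was an alternative. Clustering (scanpy 1.11.5, Python 3.11.15) used the 2000 most variable genes, 30 principal components, 15 neighbours and resolution 1.0, and left out the members, 55 pathway genes, ribosomal and mitochondrial genes. A cluster was named where at least 3 markers of 1 list were detected in 10% of its cells with a log2 level at least 0.5 higher than elsewhere, and names rebuilt this way may differ from the authors' own.

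UMI counts were summed per tumour and class, normalized by TMM, filtered by filterByExpr and tested with edgeR 4.0.16 (R 4.3.3, robust quasi-likelihood, 2-sided), with class and tumour as terms. All classes of a tumour come from the same tumour, so the tumour pairs them. P-values were adjusted by Benjamini and Hochberg over the genes not used to cluster, with a threshold of 0.05, and the fit was tested on simulated data. Each member is accounted for. Pathway genes are named where they were called and all 3 tumours had the same sign, at most 4 in each direction per list and comparison. Some pathway genes are not reported here. Alternatives were DESeq2 1.42.0, other normalization, filters, clusterings and references, equal cell numbers and each tumour left out.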

Additional observations from a re-analysis of the deposited data

How the results depend on the processing

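The 88 calls of a member in a class were recomputed under each alternative that gave a value, 1156 values in all. Of these, 838 kept their direction and their side of the threshold, 312 kept only the direction and 6 changed sign. Classes were matched between clusterings by a Jaccard index of at least 0.5, and no alternative clustering of 7 matched cluster 10, 1 matched cluster 6, and 3 matched clusters 1, 2 and 7. The reversed values were Fdps at 0.18 in cluster 7 and 0.24 in cluster 1 and Idi1 at 0.10 in cluster 7 with 4000 variable genes, Idi1 at 0.0033 in cluster 7 with the highest doublet scores removed, Msmo1 at 0.14 in cluster 9 with a limit of 8% mitochondrial UMIs, and Nr1h3 at -0.10 in cluster 11 without tumour 3 (1.74 without tumour 2). The settings that changed most calls were the fit without tumour 2 (53 of 85), the fit with no replicate block (53 of 88), the fit without tumour 3 (47 of 88 lost and 1 reversed) and equal cell numbers (30 of 66). The DESeq2 Wald test changed 10 of 88, leaving out tumour 1 changed 7 and DESeq2 size factors 1. Of the 88 calls, 15 were lost in more alternatives than they were kept in: Cyp27a1 and Fdft1 in cluster 1, Hmgcs1 in cluster 3, Cyp51 in clusters 4 and 6, Srebf2 in clusters 5 and 9, Fdft1 in cluster 6, Ch25h in cluster 8, Cyp27a1, Msmo1, Pparg and Sc5d in cluster 9, and Idi1 and Plin2 in the direct comparison.

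The tumour as a block pairs the classes, and without that replicate block 7 efflux and storage members differed among classes in place of 11, and the members called were 5 in place of 8 in the inflammatory-like class, 5 in place of 12 in the cycling-like class, 0 in place of 4 in the lipid-associated-like class, 2 in place of 9 between the latter and the inflammatory-like class, 3 in place of 7 in cluster 7, 0 in place of 2 in cluster 5, 4 in place of 12 in cluster 1, 3 in place of 6 in cluster 3, 1 in place of 6 in cluster 6, 0 in place of 2 in cluster 10, 2 in place of 8 in cluster 9 and 0 in place of 1 in cluster 13.

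Leaving out each tumour in turn gave 5 to 10 synthesis and 5 to 11 efflux and storage members that differed among classes. Members called ranged from 3 to 10 in the inflammatory-like class, 5 to 13 in the cycling-like class, 0 to 5 in the lipid-associated-like class, 2 to 10 between those 2 classes, 4 to 9 in cluster 7, 1 to 5 in cluster 5, 4 to 13 in cluster 1, 6 to 11 in cluster 8, 1 to 6 in cluster 3, 1 to 5 in cluster 6, 1 to 2 in clusters 10, 11 and 12, 1 to 8 in cluster 9 and 0 to 1 in cluster 13. The lowest counts came without tumour 2 or tumour 3, and a fit on 2 tumours has fewer samples.

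With equal cell numbers per class, which uses fewer cells, 4 synthesis and 7 efflux and storage members differed among classes, and the members called were 2 in the inflammatory-like class, 6 in the cycling-like class, 2 between the lipid-associated-like and inflammatory-like classes, 4 in cluster 7, 5 in cluster 1, 2 in clusters 3 and 6 and 1 in clusters 5 and 10. With the highest doublet scores removed there were 2 in the lipid-associated-like class, 5 in the direct comparison, 4 in cluster 5, 2 in cluster 9 and 1 in cluster 11. Without the filter on low counts there were 7 in the lipid-associated-like class, 5 in clusters 5 and 11 and 3 in cluster 13. The DESeq2 Wald test gave 5 in cluster 9 and 1 in clusters 5 and 11. With 4000 variable genes there were 6 in the cycling-like class, 5 in cluster 9 and 0 in clusters 5 and 12. The limit of 8% mitochondrial UMIs gave 4 in cluster 11 and 2 in clusters 9 and 12, at least 1000 detected genes gave 4 in cluster 5, and resolution 1.5 gave 3 in cluster 9 and 2 in cluster 12. With clusters from a random share of the UMIs and tests on the other there were 5 in cluster 5, 2 in cluster 9 and 0 in cluster 12. Without low-UMI classes in the reference there was 1 in cluster 5. Apart from the reasons given, the cause of these changes was not tested.

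The deviation of the log2 ratio of the arms was recomputed for the inflammatory-like, cycling-like and lipid-associated-like classes and cluster 7. It kept its sign in every alternative that gave a value for them. In the inflammatory-like class it was -0.75 with 1000 detected genes, -0.37 at resolution 0.5, -0.75 at resolution 1.5, -0.74 with clusters and tests on separate UMIs and -0.52 with the mean of log2 values. In the lipid-associated-like class it was 0.29 with 1000 detected genes and 0.056 with the highest doublet scores removed, and in cluster 7 it was 0.35 with the mean of log2 values and 0.88 at resolution 1.5. Leaving out each tumour gave -0.68 to -0.60, -0.86 to -0.57, 0.36 to 0.49 and 0.66 to 0.77 in the inflammatory-like, cycling-like and lipid-associated-like classes and cluster 7. Depth limits the rarest members most: Lss and Apoc2 could not be tested, and Sqle and Fdft1 rest on 516 and 454 UMIs in all cells.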
